A study of Mus musculus with 27 samples.

Results

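Trp53, the gene of the transcription factor p53, and 8 genes that p53 is known to activate were followed through the first day of mouse B cell stimulation. The 9 genes were picked by name (Trp53, Phlda3, Mdm2, Ccng1, Sesn1, Aen, Plk2, Trp53inp1 and Zmat3) and are 9 of the 35604 genes listed. Of these, 8 are among the 12147 genes tested, which had at least 1 TPM (a level scaled for transcript length and for the total of the library) in at least 3 libraries. Zmat3 reached 1 TPM in 1 library and is given by its values only. Phlda3 was under 1 TPM in naive cells, and Plk2 in 9 libraries, so both passed the minimum through the groups in which they were high.

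Naive splenic B cells of wild-type mice were used throughout, and their polyadenylated RNA was sequenced. The group called naive here was taken without culture. The other 8 groups were cultured for 6 h or 24 h with an activating antibody to CD40 at 1 µg/mL (clone HM40-3), a stand-in for the CD40 ligand of helper T cells. The antibody was given by itself, together with the helper T cell cytokine IL-4 (12.5 ng/mL) or IL-21 (50 ng/mL), or together with the 2 at once. Each of the 9 groups holds 3 libraries, 27 in all, and no group was cultured without antibody, so anti-CD40 and culture cannot be told apart in a comparison with naive cells. The labels do not say whether replicates came from separate mice or cultures, so that a p rests on sample spread that could be technical only.

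p53 is held low in resting cells because MDM2 marks the protein for destruction. Stress that blocks MDM2 or modifies p53 lets the protein accumulate and bind DNA, and its targets then halt the cell cycle, repair DNA, damp growth signals or start cell death. MDM2 is itself a p53 target, which closes a feedback loop, and because much of the control is on the protein, the level of Trp53 RNA is not a measure of p53 activity. B cells face this pathway when they divide fast and cut their own antibody genes, and in human germinal centre B cells the repressor BCL6 is known to lower p53.

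The DNA around the start sites of these genes was searched for the p53 half-site consensus, the 10-base unit that p53 binds in pairs. The consensus is its own reverse complement, so 1 strand covers both. RefSeq promoters (GRCm38.p6, 250 bases before and 50 after the start) were listed for 7 of the 9 genes. A half-site was found in 5 of the 7 (Trp53, Mdm2, Ccng1, Sesn1 and Aen). Among all 32851 promoters 8.36% hold one, and 7.88% of 8438 tested genes have such a promoter. The genes were picked as known p53 targets, so this comparison is not a test of p53 in these cells. The windows below show each match in capitals with 10 bases on either side, 5′ to 3′ on the strand of the gene.
Trp53, chr11:69580274-69580303, plus strand, 75 bases before the start: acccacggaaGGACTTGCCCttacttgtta
Mdm2, chr10:117710925-117710954, minus strand, 186 bases before the start: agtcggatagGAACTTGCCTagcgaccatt
Ccng1, chr11:40755452-40755481, minus strand, 185 bases before the start: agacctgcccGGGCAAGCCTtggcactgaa
Sesn1, second start, chr10:41887256-41887285, plus strand, 173 bases before the start: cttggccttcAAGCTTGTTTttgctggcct
Aen, chr7:78895927-78895956, plus strand, 10 bases after the start: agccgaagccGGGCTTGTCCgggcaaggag
The promoters of Phlda3, of Plk2 and of the first start of Sesn1 hold no match. The 250 bases before the starts of Phlda3 and Ccng1 are shown because these genes had the largest rises at 6 h and differ in this respect.
Phlda3, chr1:135765835-135766084, plus strand: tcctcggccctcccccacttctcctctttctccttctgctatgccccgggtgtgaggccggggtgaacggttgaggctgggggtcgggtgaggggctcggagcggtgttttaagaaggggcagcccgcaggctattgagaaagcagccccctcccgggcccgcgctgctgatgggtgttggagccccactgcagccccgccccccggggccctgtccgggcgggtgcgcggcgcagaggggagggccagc
Ccng1, chr11:40755287-40755536, minus strand: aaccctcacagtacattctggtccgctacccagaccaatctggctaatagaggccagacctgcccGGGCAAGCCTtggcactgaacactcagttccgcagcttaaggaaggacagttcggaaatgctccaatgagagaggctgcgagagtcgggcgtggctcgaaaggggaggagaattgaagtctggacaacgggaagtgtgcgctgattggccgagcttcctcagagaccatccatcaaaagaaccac
Paired half-sites at most 13 bases apart were found in 24 promoters (0.0731%), with an exact match required of each. None is a promoter of these 7 genes, and among the other p53 targets listed further on only Cdkn1a has such a pair. Sites that depart from the consensus at any base were not counted, so a p53 element with a mismatch would be missed. A single half-site was found in 8 of the 22 other targets that have a promoter entry. A match describes letters in this window, and its absence says nothing about p53 elsewhere in the gene.

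The B cell markers Cd79a, Cd79b, Ms4a1 and Pax5 were detected in every library and summed to 264 to 3497 TPM. They were lowest at 6 h with IL-21, where anti-CD40 and IL-21 gave 264 to 435 TPM. Markers of red cells and platelets summed to 685 to 1307 TPM in naive cells and 6.98 to 155 TPM in culture, and those of macrophages and monocytes to 24.3 to 34.8 TPM against 1.23 to 9.11 TPM. These fell between naive and cultured cells together with the changes below, and their part in them was not tested. T cell markers summed to at most 5.97 TPM, highest at 6 h with anti-CD40 and IL-21 (4.78 to 5.97 TPM). NK cell markers reached 2.44 TPM, dendritic cell markers 10.4 TPM and neutrophil markers 0.393 TPM, with Elane at 0 throughout. In bulk RNA, fewer cells of a type and less RNA per cell cannot be told apart. Mitochondrial transcripts were 5.50% of replicate 1 of the naive group, beside 12.7% and 13.5% in the other two, and 7.89% of replicate 1 of the 24 h group with IL-4, beside 11.6% and 11% in its other two. Libraries of other groups were as low as 6.56%. Changes of counts and calls without these 2 replicate 1 libraries are given below. For the 8 tested genes this was run only in comparisons that include at least 1 of these 2 groups. Changes of single genes smaller than their standard error were not followed.

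Changes below are differences in mean log2(TPM + 1) ± standard error between groups of 3 libraries; low genes changed more than this scale shows. Tests are limma's, with Benjamini-Hochberg adjustment over all 12147 genes, and a gene is said to rise or fall at an adjusted p below 0.05.

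**Figure D1:**
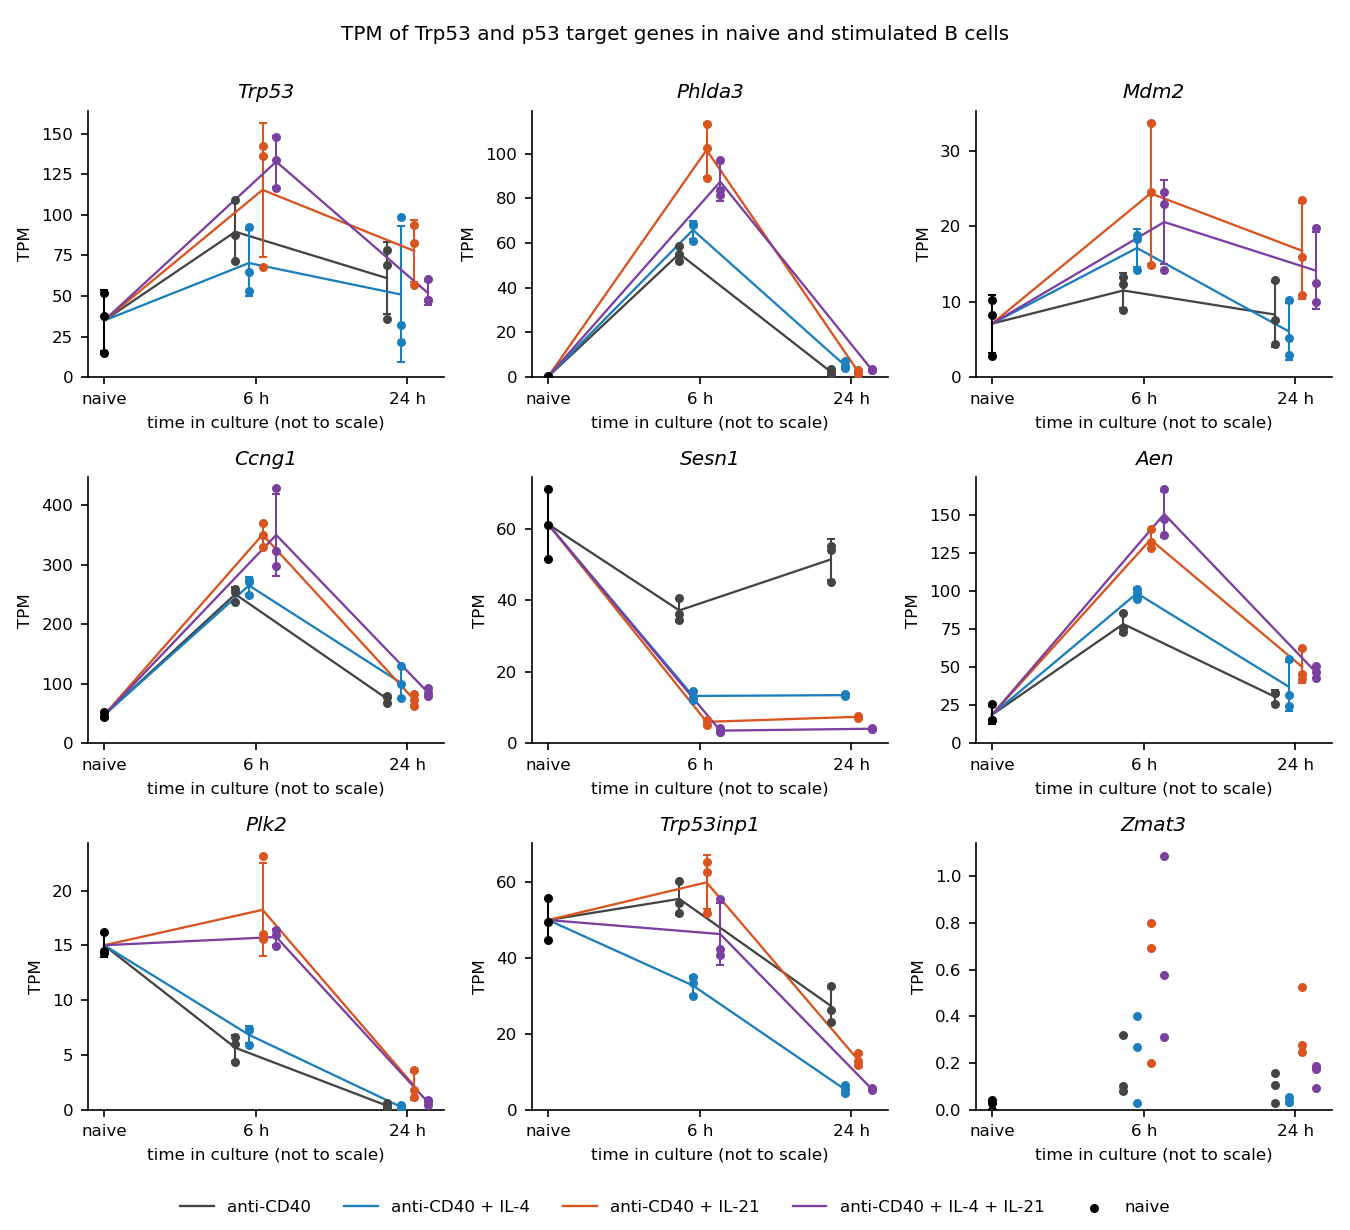
Level in TPM (linear axes from 0, scaled per gene) of the 9 genes in naive cells and after 6 h and 24 h of each stimulation. Points are libraries, lines join group means and bars are SDs over 3 libraries; Zmat3 has points only. Phlda3, Ccng1 and Aen peaked at 6 h in all 4 stimulations, while Sesn1 was highest in stimulated cells with anti-CD40 alone and lowest with both cytokines.

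Trp53 (ENSMUSG00000059552, chr11:69580359-69591873) was at 52.0, 37.8 and 14.8 TPM in the 3 naive libraries. It was at 87.5, 71.8 and 109 TPM after 6 h of anti-CD40. All 3 stimulated libraries were above all 3 naive ones, a rise of 1.49 ± 0.45 (adjusted p = 0.0149). The call rests on single libraries, since it was 0.98 (adjusted p = 0.13) without naive replicate 3 and 1.33 (adjusted p = 0.0628) without replicate 3 of the 6 h group. At 24 h of anti-CD40 the levels were 69.0, 35.7 and 78.2 TPM, which overlap the naive levels (0.88 ± 0.45, adjusted p = 0.156). Without the 2 replicate 1 libraries this change was 1.25 (adjusted p = 0.0142).

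With IL-21 added to anti-CD40, Trp53 was at 136, 67.6 and 142 TPM at 6 h and at 82.8, 93.9 and 56.6 TPM at 24 h. Both sets overlap those of anti-CD40 alone (adjusted p = 0.757 and 0.573). With IL-4 it was at 64.9, 53.3 and 92.8 TPM at 6 h and 99.0, 32.3 and 21.6 TPM at 24 h. In the last group replicate 1 stands far above the other two and decides the value, because the IL-4 effect at 24 h was -0.48 ± 0.45 (adjusted p = 0.452) with it and -1.1 (adjusted p = 0.0349) without it. With both cytokines the levels were 148, 134 and 117 TPM at 6 h, the highest group mean of the 9, and 60.2, 47.8 and 47.7 TPM at 24 h. The 6 h libraries with both cytokines lay above all 3 with IL-4, but the difference was not called (0.94 ± 0.45, adjusted p = 0.499). Processed pseudogene Trp53-ps is annotated, and reads shared with it could have been assigned to either, so small differences in Trp53 are uncertain.

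Mdm2 (ENSMUSG00000020184, chr10:117688875-117710758), the ubiquitin ligase gene that both restrains p53 and responds to it, varied widely between replicates. It was at 10.2, 2.80 and 8.29 TPM in naive cells and at 13.3, 8.85 and 12.3 TPM after 6 h of anti-CD40. These groups overlap (0.75 ± 0.43, adjusted p = 0.216). At 24 h of anti-CD40 it was at 7.52, 4.45 and 12.9 TPM, again within the naive range apart from replicate 3.

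The IL-21 groups had the higher mean Mdm2 level at both times. At 6 h they were at 24.5, 14.9 and 33.7 TPM, all above the 3 libraries of anti-CD40 alone, and the difference of 0.97 ± 0.43 was not called (adjusted p = 0.168). At 24 h they were at 15.9, 23.5 and 10.9 TPM (0.98 ± 0.43, adjusted p = 0.105), with overlapping libraries, a difference that was 1.32 (adjusted p = 0.0465) without replicate 3 of anti-CD40 alone. With IL-4 Mdm2 was at 14.2, 18.3 and 18.8 TPM at 6 h and at 10.2, 2.87 and 5.12 TPM at 24 h. With both cytokines it was at 23.0, 14.2 and 24.5 TPM at 6 h and at 19.8, 12.5 and 9.99 TPM at 24 h. IL-21 added to anti-CD40 and IL-4 for 24 h thus gave the only call of an IL-21 effect on Mdm2 (1.18 ± 0.43, adjusted p = 0.0499), at the edge of the threshold and with overlapping libraries. It was lost without replicate 2 or 3 with IL-4, or any 1 library with both cytokines, at 0.81 to 1.38 (adjusted p = 0.0605 to 0.258). It was lost as well after median-of-ratios rescaling (0.68, adjusted p = 0.18), without mitochondrial, ribosomal protein and pseudogene transcripts (1.04, adjusted p = 0.0746), with no filter (adjusted p = 0.109), with no variance trend (adjusted p = 0.0514) and with the compared groups alone (adjusted p = 0.152).

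Phlda3 (ENSMUSG00000041801, chr1:135766119-135769136) encodes a small protein with a lipid-binding domain that keeps the growth kinase AKT off the membrane. It had the largest rise of the 8 genes. Naive libraries were at 0.227, 0.116 and 0.301 TPM, and those with anti-CD40 for 6 h at 58.8, 51.8 and 54.9 TPM. The change of 5.53 ± 0.23 had an adjusted p of 4.27e-14, and the groups lay far apart. By 24 h the level was back to 2.10, 1.22 and 3.67 TPM, still above every naive library (1.39 ± 0.23, adjusted p = 7.90e-05) but far below 6 h (-4.14 ± 0.23, adjusted p = 5.46e-11).

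IL-21 raised the 6 h peak of Phlda3 to 102, 89.3 and 113 TPM, all above the libraries with anti-CD40 alone (0.86 ± 0.23, adjusted p = 0.0126). The call was lost without replicate 2 of anti-CD40 alone (0.82, adjusted p = 0.0512) or replicate 3 with IL-21 (0.78, adjusted p = 0.0615), and with a pseudocount of 0.1 (0.87, adjusted p = 0.0731). With IL-4 the 6 h levels were 68.5, 61.0 and 67.9 TPM, and the IL-4 effect was not called (0.25 ± 0.23, adjusted p = 0.817). With both cytokines they were 97.2, 83.7 and 81.4 TPM, above all libraries with IL-4 and also not called (0.40 ± 0.23, adjusted p = 0.627). At 24 h Phlda3 was highest with IL-4, at 7.0, 4.99 and 4.05 TPM, a rise over anti-CD40 alone of 0.97 ± 0.23 (adjusted p = 0.00244) that was not called in a fit of the compared groups alone (adjusted p = 0.109). IL-21 libraries at 24 h were at 1.51, 2.88 and 3.03 TPM and those with both cytokines at 3.49, 2.97 and 3.37 TPM. The former overlap anti-CD40 alone, and the latter lay below all 3 with IL-4 without a call (-0.54 ± 0.23, adjusted p = 0.0799), which became one after median-of-ratios rescaling (-1.01, adjusted p = 0.000254) or without mitochondrial, ribosomal protein and pseudogene transcripts (-0.83, adjusted p = 0.015).

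Ccng1 (ENSMUSG00000020326, chr11:40748552-40755311) encodes cyclin G1, which brings a phosphatase to MDM2. It was already at 46.1, 44.3 and 52.6 TPM in naive cells. After 6 h of anti-CD40 it was at 237, 259.7 and 254 TPM, a rise of 2.37 ± 0.16 (adjusted p = 1.68e-10). The replicates lay close together, and no naive library came near them. By 24 h Ccng1 was at 78.5, 67.5 and 79.4 TPM, which is -1.73 ± 0.16 against 6 h (adjusted p = 1.09e-07) and 0.65 ± 0.16 above naive cells (adjusted p = 0.00465). The rise at 24 h was lost after rescaling by median of ratios (0.33, adjusted p = 0.409) or without mitochondrial, ribosomal protein and pseudogene transcripts (0.53, adjusted p = 0.0522).

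All IL-21 libraries at 6 h, at 330.1, 350.2 and 371 TPM, had more Ccng1 than any with anti-CD40 alone. The change of 0.48 ± 0.16 narrowly missed the threshold (adjusted p = 0.0530). A fit that blocks on the replicate number called it (adjusted p = 0.0147), as did fits with no filter on low values (adjusted p = 0.0430) and of the 2 groups alone (adjusted p = 0.0216). With 1 library left out it was 0.44 to 0.52 and never called (adjusted p = 0.0763 to 0.169). Over all alternatives the change was as low as 0.36 and the adjusted p as high as 0.447. With IL-4 Ccng1 was at 249, 272 and 275 TPM at 6 h, and with both cytokines at 323, 298 and 428 TPM. Both cytokines together lay above IL-4 in every library, again with no call (0.38 ± 0.16, adjusted p = 0.355). At 24 h it was at 73.7, 63.6 and 82.4 TPM with IL-21, at 76.0, 100.3 and 129.9 TPM with IL-4 and at 84.8, 79.4 and 93.1 TPM with both. The IL-4 effect at 24 h was 0.41 ± 0.16 (adjusted p = 0.0574), and 0.60 (adjusted p = 0.00226) without replicate 1 with IL-4. Without that library the effect of IL-21 added to IL-4 was -0.41 (adjusted p = 0.0274) against -0.22 ± 0.16 (adjusted p = 0.327) with it. After median-of-ratios rescaling these effects were 0.88 (adjusted p = 0.0157) and -0.79 (adjusted p = 0.0433).

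Aen (ENSMUSG00000030609, chr7:78895854-78911209), which encodes a nuclease that degrades DNA in dying cells, followed the same course. Its levels were 25.8, 15.3 and 15.6 TPM in naive cells and 73.4, 75.9 and 85.6 TPM after 6 h of anti-CD40. The rise was 2.03 ± 0.22 (adjusted p = 2.36e-07), with no overlap. At 24 h it was at 33.0, 25.7 and 33.2 TPM, a level that fell by 1.33 ± 0.22 from 6 h (adjusted p = 0.000158). The lowest of these libraries is just under the highest naive one (0.70 ± 0.22, adjusted p = 0.0233). This last call was lost when replicate 1 or 3 of the 24 h group, or replicate 2 or 3 of the naive group, was left out (0.58 to 0.64, adjusted p = 0.0803 to 0.118), and with the compared groups alone (adjusted p = 0.0778).

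IL-21 raised Aen at both times. At 6 h it was at 132, 128 and 141 TPM with IL-21 (0.77 ± 0.22, adjusted p = 0.0259), and at 24 h at 45.5, 62.5 and 42.5 TPM (0.68 ± 0.22, adjusted p = 0.0292). No library with IL-21 overlapped those with anti-CD40 alone. At 6 h the call was lost when replicate 1 or 2 of anti-CD40 alone, or any 1 library with IL-21, was left out, although the change stayed at 0.72 to 0.79 (adjusted p = 0.0599 to 0.0973). At 24 h it was lost without replicate 2 of either group (0.52 with IL-21 and 0.57 with anti-CD40 alone, adjusted p = 0.151 and 0.132), and without mitochondrial, ribosomal protein and pseudogene transcripts (0.45, adjusted p = 0.0533). With IL-4 Aen was at 94.8, 102 and 98.9 TPM at 6 h and at 55.7, 31.9 and 24.4 TPM at 24 h. With both cytokines it was at 147, 167 and 137 TPM and at 42.9, 50.6 and 46.7 TPM. At 6 h both cytokines lay above IL-4 in every library without a call (0.60 ± 0.22, adjusted p = 0.235), and the change was called when only those 2 groups were fitted (adjusted p = 0.0231) or after median-of-ratios rescaling (adjusted p = 0.00292). With 1 library left out it was 0.52 to 0.67 and never called (adjusted p = 0.312 to 0.629). At 24 h the change was 0.40 ± 0.22 (adjusted p = 0.195), and 0.72 (adjusted p = 0.00436) without replicate 1 with IL-4.

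Plk2 (ENSMUSG00000021701, chr13:110395046-110400844), for a polo-like kinase of the early cell cycle and of centriole copying, went the other way with anti-CD40. It was at 16.3, 14.5 and 14.3 TPM in naive cells and fell to 5.97, 4.35 and 6.68 TPM at 6 h (-1.28 ± 0.24, adjusted p = 0.000248). At 24 h it was at 0.155, 0.386 and 0.619 TPM (-3.54 ± 0.24 against naive, adjusted p = 3.27e-10). The 3 groups do not overlap. With IL-21 for 6 h Plk2 was at 16.0, 15.6 and 23.1 TPM, in and above the naive range, and 1.52 ± 0.24 above anti-CD40 alone (adjusted p = 0.000137). At 24 h IL-21 libraries were at 1.78, 1.17 and 3.62 TPM, low but above all 3 with anti-CD40 alone (1.14 ± 0.24, adjusted p = 0.00132).

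IL-4 left no call on Plk2, with 7.33, 5.94 and 7.27 TPM at 6 h and 0.352, 0.442 and 0.0757 TPM at 24 h (adjusted p = 0.846 and 0.797). IL-21 raised it over IL-4 at 6 h, to 14.9, 16.4 and 16.0 TPM (1.1 ± 0.24, adjusted p = 0.00956). That call was lost with a pseudocount of 0.1 (1.2, adjusted p = 0.2) and without replicate 2 with IL-4 (1.01, adjusted p = 0.0647). At 24 h both cytokines gave 0.401, 0.815 and 0.924 TPM, which overlaps IL-4 (0.41 ± 0.24, adjusted p = 0.218). The IL-21 effect at 24 h was not shown to depend on IL-4 (interaction -0.74 ± 0.34, adjusted p = 0.228).

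Trp53inp1 (ENSMUSG00000028211, chr4:11156431-11174379) encodes a stress protein that promotes p53 phosphorylation and autophagy. It did not follow the 6 h peak. Naive libraries were at 44.9, 49.4 and 55.8 TPM and 6 h anti-CD40 libraries at 51.9, 60.3 and 54.5 TPM, which overlap (adjusted p = 0.544). By 24 h of anti-CD40 it fell to 26.4, 23.2 and 32.5 TPM, below every naive library (-0.85 ± 0.16, adjusted p = 0.000412).

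IL-4 lowered Trp53inp1 at both times. At 6 h the levels with IL-4 were 29.9, 35.0 and 33.3 TPM (-0.75 ± 0.16, adjusted p = 0.00551), and at 24 h 4.49, 5.39 and 6.49 TPM (-2.13 ± 0.16, adjusted p = 2.30e-09), with no overlap at either time. The 6 h call was lost after median-of-ratios rescaling (-0.77, adjusted p = 0.0623). IL-21 at 6 h gave 51.8, 62.6 and 65.3 TPM, which overlaps anti-CD40 alone (adjusted p = 0.778), and at 24 h it gave 12.8, 11.8 and 14.9 TPM, a fall of 1.0 ± 0.16 (-1.0, adjusted p = 8.70e-05). This effect was lower at 24 h than at 6 h by a test of the change itself (-1.1 ± 0.23, adjusted p = 0.00508). With both cytokines Trp53inp1 was at 40.8, 42.5 and 55.6 TPM at 6 h, above all libraries with IL-4 and not called (0.48 ± 0.16, adjusted p = 0.166). At 24 h it was at 5.4, 5.33 and 5.74 TPM, within the range of IL-4 (0.02 ± 0.16, adjusted p = 0.95). The interaction of IL-21 and IL-4 at 24 h was 1.02 ± 0.23 (adjusted p = 0.00845), lost after median-of-ratios rescaling (0.76, adjusted p = 0.167) and in a fit of the compared groups alone (adjusted p = 0.122).

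Sesn1 (ENSMUSG00000038332, chr10:41809935-41908424) encodes sestrin 1, a stress protein that lowers mTORC1 signalling and is also a target of FOXO factors. It was at 71.1, 51.7 and 61.1 TPM in naive cells, 40.7, 36.3 and 34.6 TPM after 6 h of anti-CD40 and 54.1, 45.0 and 55.3 TPM after 24 h. The fall at 6 h was 0.70 ± 0.15 (-0.70, adjusted p = 0.000893) with no overlap, and the 24 h libraries overlap the naive ones (-0.24 ± 0.15, adjusted p = 0.245). After median-of-ratios rescaling the 24 h change was called (-0.56, adjusted p = 0.0156). From 6 h to 24 h of anti-CD40 Sesn1 rose by 0.45 ± 0.15 (adjusted p = 0.0291), a call lost after that rescaling (0.29, adjusted p = 0.213). It was also lost without replicate 2 or 3 of the 6 h group or replicate 1 or 3 of the 24 h group (0.40 to 0.44, adjusted p = 0.0889 to 0.113).

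Either cytokine brought Sesn1 to a fraction of that level, and both together to the lowest. IL-4 gave 13, 14.8 and 12.1 TPM at 6 h and 13.5, 13.2 and 13.8 TPM at 24 h. IL-21 gave 5.25, 6.25 and 6.65 TPM and then 7.82, 7.19 and 7.39 TPM. Both cytokines gave 4.26, 3.18 and 3.35 TPM and then 4.33, 4.13 and 3.93 TPM. At each time the 4 stimulations did not overlap and kept this order, anti-CD40 alone highest, then IL-4, IL-21 and both.

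The IL-21 effect on Sesn1 with anti-CD40 alone was -2.44 ± 0.15 at 6 h (adjusted p = 1.21e-10) and -2.63 ± 0.15 at 24 h (adjusted p = 1.87e-11). With IL-4 present it was -1.64 ± 0.15 (adjusted p = 1.64e-07) and -1.5 ± 0.15 (adjusted p = 1.50e-07). The IL-4 effect was -1.42 ± 0.15 at 6 h (adjusted p = 1.07e-06) and -1.85 ± 0.15 at 24 h (adjusted p = 6.57e-09). On this log scale the sum of both single effects was larger than the joint effect at 24 h (interaction 1.13 ± 0.21, adjusted p = 0.00198). At 6 h the interaction was 0.80 ± 0.21 (adjusted p = 0.111), called with no filter on low values (adjusted p = 0.0312). The IL-21 effects on Sesn1 without and with IL-4, and the IL-4 effect with anti-CD40, kept their calls at both times under every alternative run. The IL-4 effect beside IL-21 was not tested.

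**Figure D2:**
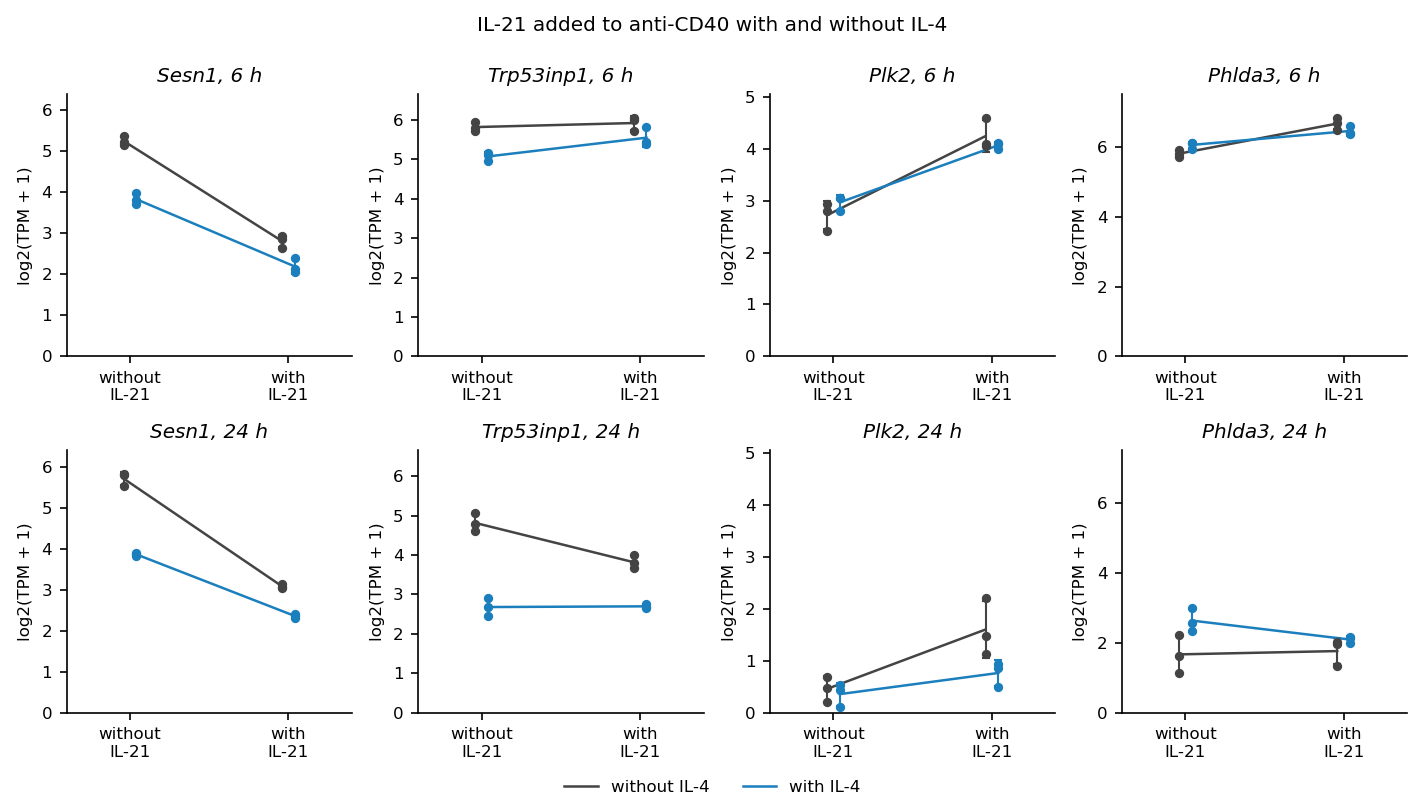
Level of 4 genes as log2(TPM + 1) without and with IL-21, at 6 h (top) and 24 h (bottom); all cells had anti-CD40. Grey is without IL-4 and blue with IL-4, points are libraries, lines join means and bars are SDs of 3 libraries. At 24 h the lines converge for Sesn1 and for Trp53inp1, whose IL-21 effect at 24 h was -1.0 without and 0.02 with IL-4.

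Zmat3 (ENSMUSG00000027663, chr3:32334792-32366014), for a zinc finger protein that binds RNA, was near the lower end of the table. It was listed at 0 in naive replicate 1 and at 0.0429 and 0.0301 TPM in the other two. With anti-CD40 it was at 0.101, 0.0823 and 0.321 TPM at 6 h and 0.0313, 0.107 and 0.160 TPM at 24 h. With IL-21 it was at 0.8, 0.695 and 0.202 TPM at 6 h and 0.250, 0.279 and 0.526 TPM at 24 h. These libraries are the higher ones at 24 h, with no overlap, and overlap those without IL-21 at 6 h. With IL-4 it was at 0.402, 0.270 and 0.0291 TPM and then at 0.0342, 0.0568 and 0.0325 TPM. With both cytokines it was at 0.579, 1.09 and 0.312 TPM and then at 0.0949, 0.177 and 0.190 TPM. The depth behind such values is unknown, and no test was made.

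Against naive cells, 6 of the 8 tested genes were called after 6 h of anti-CD40, beside 29.9% of all genes (16.6% higher and 13.3% lower). Phlda3, Ccng1, Aen and Trp53 rose, Plk2 and Sesn1 fell, and the median change of the 8 was 1.12 beside 0.06 over all genes. At 24 h 5 were called, beside 26.8% of all genes (18.9% higher and 7.85% lower), with Phlda3, Ccng1 and Aen up and Plk2 and Trp53inp1 down. After median-of-ratios rescaling the 24 h split of 3 up and 2 down was 2 up and 3 down. Both comparisons share the naive libraries.

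The second list held 26 further p53 targets, of which 22 were tested. At 6 h of anti-CD40, 11 of the 22 rose and 2 fell (16.6% and 13.3% of all genes), with a median of 1.02. Cdkn1a, for the cell cycle inhibitor p21, went from a mean of 0.978 ± 0.122 to 45.2 ± 7.35 TPM (SD, n = 3), a change of 4.54 ± 0.25 (adjusted p = 5.79e-12). Psrc1, for a spindle protein (2.95 ± 0.28), Rps27l, for a ribosomal protein variant (2.82 ± 0.28), and Bbc3, for the death protein PUMA (2.61 ± 0.53), rose as well. Gadd45a, for a growth arrest protein (-2.04 ± 0.26), and Btg2, for an antiproliferative protein (-1.15 ± 0.27), were the 2 that fell. Sesn2, the paralog of Sesn1, rose by 1.36 ± 0.27, from 1.75 ± 0.406 to 6.06 ± 0.729 TPM, and so moved opposite to Sesn1. At 24 h of anti-CD40 4 of the 22 were above and 3 below naive cells (18.9% and 7.85% of all genes). The death receptor gene Fas was highest (2.50 ± 0.22). The count of the 22 that rose at 24 h was 9 without the 2 replicate 1 libraries.

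**Figure D3:**
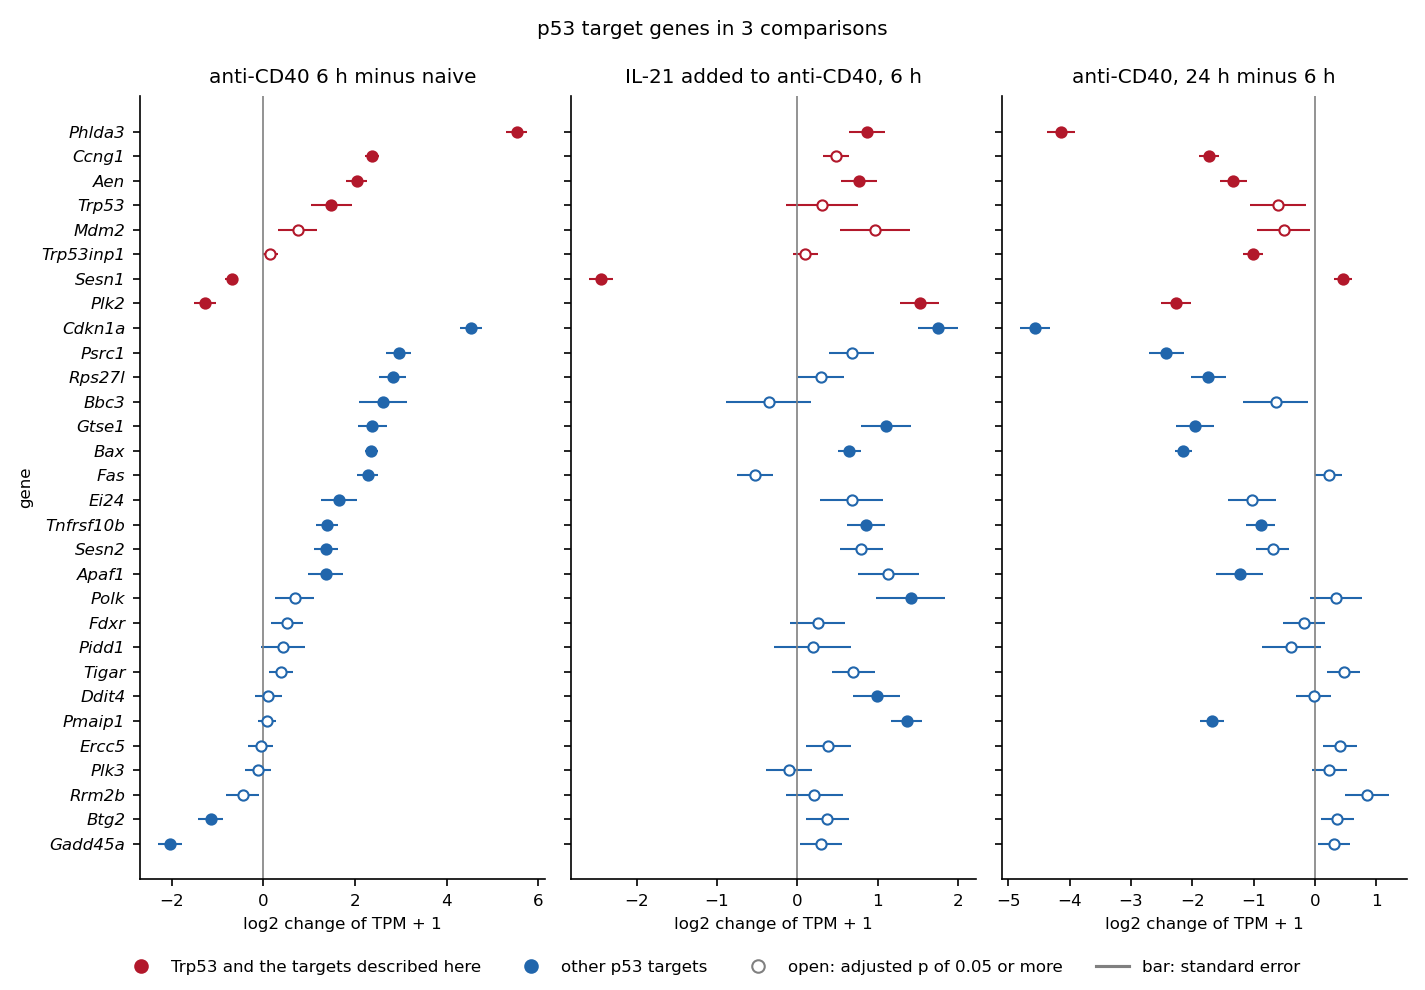
Change on the log2(TPM + 1) scale with its standard error in 3 comparisons, for Trp53 and the 7 tested targets (red) and 22 other p53 targets (blue). Filled points have an adjusted p below 0.05; genes are sorted within each colour by the first panel. Phlda3 and Cdkn1a rose by 5.53 and 4.54 at 6 h and fell by 4.14 and 4.57 from 6 h to 24 h.

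The fall from 6 h to 24 h was found in every stimulation. With anti-CD40 alone 5 genes fell and Sesn1 rose (24.3% of all genes called, 16.1% higher and 8.17% lower), with IL-4 6 fell (25.4% called, 8.82% higher and 16.6% lower), with IL-21 5 fell (35.5% called, 26.2% higher and 9.3% lower) and with both cytokines 6 fell (30.2% called, 20.8% higher and 9.46% lower). Phlda3, Ccng1, Aen, Plk2 and Trp53inp1 fell in all 4. On the log2(TPM + 1) scale the falls of Phlda3 were the largest, at -4.14 ± 0.23, -3.42 ± 0.23, -4.91 ± 0.23 and -4.37 ± 0.23 in that order. This order depends on the scale. With IL-4 the mean TPM at 24 h was 0.0423 of that at 6 h for Plk2, below 1 TPM at 24 h, and 0.0812 for Phlda3. Trp53inp1 fell by 1.01 with anti-CD40 alone (-1.01 ± 0.16), and its estimated fall was larger with IL-4 (-2.39 ± 0.16), IL-21 (-2.11 ± 0.16) or both (-2.85 ± 0.16). Of these differences from anti-CD40 alone, only that with IL-21 was tested (limma, -1.1 ± 0.23, adjusted p = 0.00508). Mdm2 fell with IL-4 (-1.48 ± 0.43, adjusted p = 0.0148), a call lost without replicate 2 or 3 of the 24 h group (-1.12 and -1.45, adjusted p = 0.107 and 0.0501) and with the compared groups alone (adjusted p = 0.0665). Trp53 fell with both cytokines (-1.34 ± 0.45, adjusted p = 0.0279), a call lost without replicate 1 or 2 of the 6 h group or replicate 2 or 3 of the 24 h group (-1.33 to -1.26, adjusted p = 0.0693 to 0.0766) and with no filter (adjusted p = 0.0682). With IL-4, where Trp53 was not called (-0.72 ± 0.45, adjusted p = 0.266), its fall was 1.34 without replicate 1 at 24 h (-1.34, adjusted p = 0.0134). Of the 22 other targets 8, 11, 9 and 13 fell in the 4 stimulations and 0 rose, although after median-of-ratios rescaling 1 rose with IL-4. Cdkn1a fell most in each, by 4.57 to 5.46 (-4.57, -4.65, -5.46 and -4.67, each ± 0.25). The last 3 of these 4 time comparisons were added after the data had been seen.

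When IL-21 was added to anti-CD40, 4 of the 8 genes were called at 6 h (12.1% of all genes, 7.43% higher and 4.68% lower), Plk2, Phlda3 and Aen up and Sesn1 down. The count ranged from 2 to 4 when 1 library was left out. At 24 h 4 were called (24.2% of all genes, 17.8% higher and 6.33% lower), Plk2 and Aen up and Sesn1 and Trp53inp1 down. Of the 22 other targets 7 rose and 0 fell at 6 h, with a median of 0.66 beside 0.10 over all genes. Cdkn1a (1.75 ± 0.25), the DNA polymerase gene Polk (1.41 ± 0.42), Pmaip1, for the death protein NOXA (1.36 ± 0.20), and Gtse1, for a p53-binding protein of the G2 phase (1.1 ± 0.31), had the largest rises. The count was 10 without the 2 replicate 1 libraries, which belong to neither compared group but to the same fit. Of the same genes 8 rose and 1 fell at 24 h, led by Gtse1 (2.06 ± 0.31), the apoptosome gene Apaf1 (1.47 ± 0.38), Pidd1 (1.42 ± 0.48) and Ei24 (1.08 ± 0.39), while Fas fell (-0.84 ± 0.22). After median-of-ratios rescaling 6 rose and 3 fell. Only Trp53inp1 of the 8 genes had an IL-21 effect that differed between the times by test (4.44% of all genes called, 3.1% higher and 1.34% lower).

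In the presence of IL-4, IL-21 gave 2 calls at 6 h (2.54% of all genes, 1.25% higher and 1.28% lower), Plk2 up and Sesn1 down, and 2 at 24 h (24.2% of all genes, 21.8% higher and 2.39% lower), Mdm2 up and Sesn1 down. After median-of-ratios rescaling the 24 h split was 0 up and 3 down, and without the 2 replicate 1 libraries it was 3 up and 2 down. Of the 22 other targets Cdkn1a (1.09 ± 0.25) and Pmaip1 (0.75 ± 0.20) rose at 6 h. At 24 h 7 rose and 1 fell, led by the mTORC1 inhibitor gene Ddit4 (1.56 ± 0.29), Btg2 (1.55 ± 0.27), Pmaip1 (1.35 ± 0.20) and Sesn2 (1.21 ± 0.27), with Fas again lower (-1.12 ± 0.22). The count of risers was 14 without the 2 replicate 1 libraries. All genes called at 24 h numbered 2941, and 959 to 5632 with 1 library left out, lowest without replicate 3 with IL-4 and highest without replicate 1 with IL-4.

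Whether IL-4 alters the IL-21 effect was tested as an interaction. At 6 h 0 of the 8 genes were called by limma (0.412% of all genes, 0.148% higher and 0.263% lower), and 1, Sesn1, had an unadjusted p below 0.05. At 24 h Sesn1 and Trp53inp1 were called (5.8% of all genes, 3.33% higher and 2.48% lower), and Ddit4 (2.24 ± 0.41) and Btg2 (2.16 ± 0.38) among the 22 other targets. These 2 calls up and 0 down among the other targets became 2 and 2 after median-of-ratios rescaling, and 6 and 1 without the 2 replicate 1 libraries. After median-of-ratios rescaling the 8 genes had 1 call up, Sesn1, and 2 down at 24 h. The change of the IL-21 effect from 6 h to 24 h with IL-4 gave 0 calls among the 8 (4.24% of all genes, 3.66% higher and 0.576% lower), with 2, Phlda3 and Ccng1, at an unadjusted p below 0.05. Ccng1 was called there (-0.79, adjusted p = 0.00643) without replicate 1 of the 24 h group with IL-4. Without the 2 replicate 1 libraries Trp53inp1 was called as well (-0.57, adjusted p = 0.0479). Phlda3 was called after median-of-ratios rescaling (-1.34, adjusted p = 0.00153) and without mitochondrial, ribosomal protein and pseudogene transcripts (-1.18, adjusted p = 0.0347). The shares of all genes called are themselves unsteady here: with 1 library left out the 705 genes called for the interaction at 24 h became 499 to 2457, and the 515 called for the change of the IL-21 effect beside IL-4 became 260 to 3406. The highest count in each case was without replicate 1 of the 24 h group with IL-4.

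IL-4 added to anti-CD40 gave 2 calls at 6 h (4.04% of all genes, 1.65% higher and 2.4% lower), Sesn1 and Trp53inp1, both down. At 24 h it gave 3 (31.4% of all genes, 8.28% higher and 23.1% lower), with Phlda3 up and Sesn1 and Trp53inp1 down, or 3 up and 2 down after median-of-ratios rescaling. Of the 22 other targets 0 were called at 6 h by limma, with 4 at an unadjusted p below 0.05, and 2 rose after median-of-ratios rescaling. At 24 h 3 rose and 5 fell, among them Btg2 (-2.65 ± 0.27), Ddit4 (-2.53 ± 0.29), Bbc3 (-2.23 ± 0.53) and Gadd45a (-1.37 ± 0.26), or 5 and 5 after that rescaling.

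**Figure D4:**
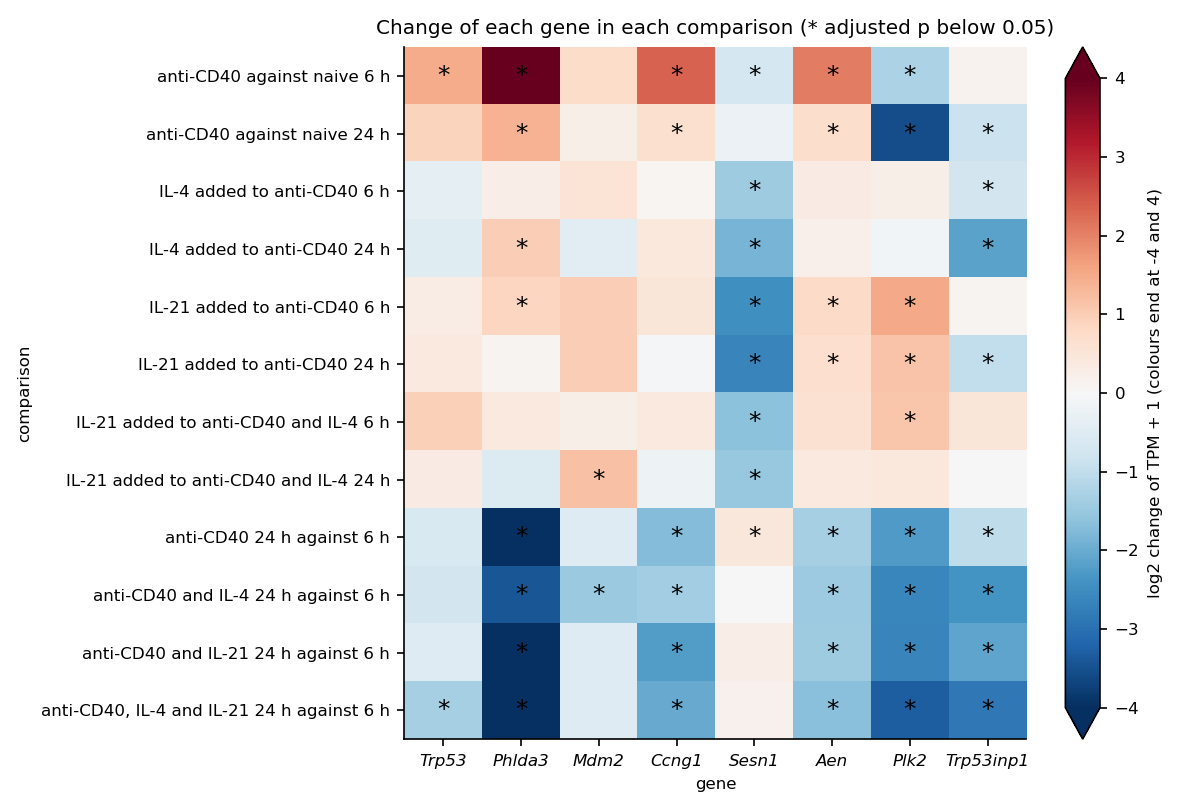
Change of the 8 tested genes (columns) in 12 comparisons (rows), as colour on the log2(TPM + 1) scale from -4 to 4, with an asterisk at an adjusted p below 0.05. Sesn1 was called lower in all 6 rows in which a cytokine was added, and Phlda3, Ccng1, Aen, Plk2 and Trp53inp1 in all 4 rows of 24 h against 6 h.

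Other lists describe the surroundings of the pathway. Of 14 tested genes for p53 regulators 2 rose and 1 fell at 6 h of anti-CD40, beside 16.6% higher and 13.3% lower over all genes. The 1 that fell was Rchy1, for a ubiquitin ligase of p53 (-2.06 ± 0.37). At 24 h 7 rose and 1 fell, beside 18.9% higher and 7.85% lower over all genes. Among the risers was the checkpoint kinase gene Chek1 (1.57 ± 0.47), and the split was 4 and 1 after median-of-ratios rescaling. With IL-4 at 24 h 1 of the 14 rose and 3 fell, beside 8.28% higher and 23.1% lower over all genes. Chek1 rose (1.81 ± 0.47). Trp53bp1 (-1.32 ± 0.36), Prkdc (-0.85 ± 0.27) and Mdm4, the partner of Mdm2 (-1.21 ± 0.26, adjusted p = 0.0014), fell. IL-21 added to anti-CD40 gave 0 calls on the regulators at 6 h by limma (12.1% of all genes), with 3 at an unadjusted p below 0.05. At 24 h 1 rose, Hipk2 (0.90 ± 0.32, adjusted p = 0.0449), beside 17.8% of all genes. Added to IL-4 at 24 h, IL-21 raised 3 and lowered 0 (21.8% and 2.39% of all genes), with Hipk2 highest (2.47 ± 0.32). All 12 FOXO and quiescence genes were tested, a list beside Sesn1, which FOXO factors also activate. At 6 h of anti-CD40 10 of them fell (13.3% of all genes), such as Klf2 (-3.98 ± 0.32), Pik3ip1 (-2.77 ± 0.36) and Txnip (-2.24 ± 0.28). With IL-4 at 24 h 11 fell (23.1% of all genes), with a median of -1.64 beside -0.31 over all genes. IL-21 added to anti-CD40 lowered 1 at 6 h (Cdkn1b, -0.71 ± 0.20) and 3 at 24 h (4.68% and 6.33% of all genes). Added to IL-4 at 24 h it raised 7 (21.8% of all genes), or 6 with 1 lower after that rescaling. Sesn1 fell there. Sesn3, the third sestrin gene, rose there (1.22 ± 0.34, adjusted p = 0.0144) and fell with IL-4 at 24 h (-1.99 ± 0.34, adjusted p = 0.000133). It was at 27.9 ± 7.27 TPM with anti-CD40 for 24 h and at 44.2 ± 19.2 TPM with IL-21, with no call for IL-21. Of 16 tested G2 and mitosis genes 0 were called with IL-21 at 6 h (12.1% of all genes), with 1 at an unadjusted p below 0.05. At 24 h 16 rose (17.8% of all genes), with a median of 2.22 (Plk1, 3.07 ± 0.41).

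Likeness of pattern was measured as Pearson's r of log2(TPM + 1) over the 27 libraries against 7947 protein-coding genes, as a description in which the libraries share time and stimulation. The 3 genes most like Phlda3 were Bax (0.974), Cdkn1a (0.967) and Psrc1 (0.966). All 3 are in the list of other p53 targets, which was chosen with earlier results of these data known. Those most like Ccng1 were Tma16 (0.958), Bax (0.956) and Thyn1 (0.955). Aen was most like Odc1 (0.983), Thumpd1 (0.983) and Mrps6 (0.981), none of them listed p53 targets. Sesn1 was most like Ms4a4c (0.970), Gbp3 (0.937) and Itga4 (0.932). Plk2 was most like Hnrnph2 (0.928), Pmaip1 (0.909) and Eif2b5 (0.907), and Trp53inp1 most like Car2 (0.926), Nr1d2 (0.922) and Igip (0.922). Trp53 (Nudcd3, 0.909; Zfp553, 0.906; Pdrg1, 0.903) and Mdm2 (Cnot7, 0.901; Senp5, 0.895; Hif1a, 0.885) had the lowest values.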

How the data were processed

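The submitters' processing notes name Salmon 1.9.0 and GRCm38 (mm10); the annotation and the step from transcripts to genes are not given in the sources used here. The authors deposited 1 table of TPM values, whose listed genes sum to 766384 to 825365 per library. Depth cannot be read from TPM, and the counting error of low values is unknown. Gene IDs were matched to GENCODE M21, which named 35254 of 35604. With limma 3.58.1 (R 4.3.3), log2(TPM + 1) of the 27 libraries was fitted by group, with a variance trend and 18 residual degrees of freedom, so every comparison shares 1 estimate of spread per gene. The code was tested on simulated data.

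Named genes are the 9 members, up to 4 called genes of each list per comparison by size of change, and the 3 most alike per member; Sesn2, Sesn3 and Mdm4 were named besides, after their values were seen. Members and lists were chosen with earlier results of these data known. One of the B cell markers first listed is not reported here. Equal replicate numbers are not paired by any label. With group means removed, same-numbered libraries correlated above 0.1 in every pair only where a cytokine was added at 6 h, with 0.186 to 0.335 for IL-21, 0.183 to 0.377 for IL-21 beside IL-4 and 0.107 to 0.382 for IL-4, and in 48 of 108 pairs overall. Alternatives were a filter at 5 TPM or none, a pseudocount of 0.1, 2 rescalings, no variance trend, the compared groups alone, the replicate number as a block, and libraries left out.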

Additional observations from a re-analysis of the deposited data

Results flagged for a closer look

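The effect of IL-21 differed between contexts by test for 2 genes. For Sesn1 the 24 h interaction between IL-21 and IL-4 was 1.13 ± 0.21 (limma, adjusted p = 0.00198). IL-21 lowered Sesn1 in all 3 libraries of either context, and by less beside IL-4. For Trp53inp1 the same interaction was 1.02 ± 0.23 (adjusted p = 0.00845), a call lost after median-of-ratios rescaling (0.76, adjusted p = 0.167) and with the compared groups alone (adjusted p = 0.122), where that of Sesn1 was kept. The IL-21 effect on Trp53inp1 with anti-CD40 also changed from 6 h to 24 h, by -1.1 ± 0.23 (adjusted p = 0.00508).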

How the results depend on the processing

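Of 54 called changes of single genes, none turned direction; 438 of 456 values under other settings and 311 of 342 without 1 library kept their call, and calls lost without 1 library are given beside each result. Among 44 changes not called and larger than their standard error, 23 of 368 values were called under other settings, and 3 turned sign: Aen with IL-21 added to IL-4 at 24 h (-0.17 after median-of-ratios rescaling), Plk2 in the change of the IL-21 effect with anti-CD40 (0.55 with a pseudocount of 0.1) and Sesn1 from 6 h to 24 h with IL-21 (-0.0136 after that rescaling). The cause was not tested. For 30 changes smaller than their standard error no direction was followed. Any call these gained is left out of the 23 and enters only the counts of called genes.

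Counts of called genes moved as follows. For IL-21 with IL-4 at 6 h the count was 1 with a pseudocount of 0.1, and 1 to 2 without 1 library. For IL-21 with IL-4 at 24 h it was 1 with no filter, no variance trend or the compared groups alone, 5 without replicate 1 of the naive group and of the 24 h group with IL-4, and 1 to 4 without 1 library. For IL-4 it was 1 at 6 h and 5 at 24 h after median-of-ratios rescaling, 5 at 24 h without the 2 libraries, and 3 to 5 without 1 library. The interaction gave 1 at 6 h with no filter and 1 at 24 h with the compared groups alone. The change from 6 h to 24 h of the IL-21 effect beside IL-4 gave 2 after median-of-ratios rescaling, 1 without mitochondrial, ribosomal protein and pseudogene transcripts, 2 without the 2 libraries, and 0 to 1 without 1 library. IL-21 with anti-CD40 gave 2 to 4 at 6 h and 3 to 5 at 24 h without 1 library.

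That rescaling moved the median change of all genes at 24 h, from 0.38 to -0.01 for IL-21 with IL-4, from -0.31 to near 0 for IL-4, from 0.23 to 0 for IL-21 and from 0.25 to 0.02 for anti-CD40. The share of called genes that were higher went from 90.1% to 46.3%, 26.4% to 54.0%, 73.8% to 54.8% and 70.7% to 44.9%. With the replicate block Ccng1 was called for IL-21 at 6 h (0.48, adjusted p = 0.0147) and for IL-4 at 24 h (0.41, adjusted p = 0.0197), and it changed no other call. For IL-4 at 24 h same-numbered libraries correlated at -0.209 to 0.268, below what was taken as pairing. As a hint from the data, not the design, the mean correlation was highest with the own number for 23 of 27 libraries.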
